A study of Mus musculus with 4 samples.

Results

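Nuclei from hippocampi of newborn mice were profiled by ATAC-seq, an assay in which Tn5 transposase places sequencing adapters into open chromatin so that accessible sites appear as peaks of fragments. The peaks described here lie between genes but near them: 9637 of the 119365 peaks called in 4 libraries (8.07%) were intergenic and 2 to 50 kb from a gene start. A peak was a member when its summit, the position of highest coverage, fell outside every annotated gene body, more than 2 kb from any transcription start site (TSS) and at most 50 kb from the nearest protein-coding TSS. Autosomal peaks were kept, and peaks overlapping a CpG island (at least 200 bp, GC of at least 50%, observed over expected CpG of at least 0.6, called as segments from CpG to CpG with soft-masked bases not counted as CpG) or at least 50% soft-masked as repeats were left out. Of 12525 peaks that met the positional rule, 2278 were masked and 610 overlapped an island, with no peak in both groups. The members closest to the limits lay 2001 bp from a TSS, 49990 bp from a protein-coding TSS and at 49.8% masked bases, and the nearest peaks left out lay at 1999 bp, 50001 bp and 50%.

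The libraries are called cKO 1, cKO 2, Ctrl 1 and Ctrl 2 after their group and replicate number. Both libraries of the cKO group came from P0 (postnatal day 0) mice of genotype Kdm2bEmx1-delta-CxxC, in which Emx1-Cre removes the exon encoding the CxxC zinc finger of KDM2B in the dorsal telencephalic lineage. Both Ctrl libraries came from P0 mice labelled Kdm2bfl/+ or Kdm2bfl/fl, and the labels do not say which genotype each library had. All 4 libraries used 50000 nuclei of dissected tissue, so cells outside the Emx1-Cre lineage (interneurons, microglia, vessels) were sampled in both groups, and in cKO these cells keep the floxed exon. In such bulk nuclei fewer cells with an open site and less opening per cell cannot be told apart. The labels name neural progenitor cells as the source while the titles and the protocol name hippocampus, and no sex, litter or batch is given. Peak names in the lists carry a different short code for each library, which the labels do not explain and which was not used. The labels do not state that libraries of a group came from separate animals, so the p-values measure the spread between libraries, which may be technical.

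Intergenic open sites near genes include enhancers, which bind transcription factors and act on promoters at a distance, and sites of CTCF, the zinc-finger protein that with cohesin anchors chromatin loops. KDM2B binds unmethylated CpG islands through its CxxC finger and recruits a variant Polycomb complex there. No island was called at a member, as the rule requires, but 192 of 5499 merged member regions (3.49%) had a 201 bp summit window that meets the GC and CpG limits of an island on its own, those near Znrf4, Klrb1c, Hic2 and Tmem125 among them. In the newborn hippocampus, proneural bHLH factors such as NEUROG2 and NEUROD1 act on E-boxes in progenitors and young neurons, and Wnt signals from the cortical hem act through TCF and LEF factors.

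The sequences below are the 201 bp centred on the deepest summit (GRCm38, plus strand, 5′ to 3′), with any matches to the 11 searched motifs in capitals. The first 3 show deep members that were open in libraries of both groups and that carry, in this order, a CTCF core overlapping a neurogenic E-box, homeobox letters at 4 places, and a single E-box.
Tbpl1 (chr10:22746536-22746736): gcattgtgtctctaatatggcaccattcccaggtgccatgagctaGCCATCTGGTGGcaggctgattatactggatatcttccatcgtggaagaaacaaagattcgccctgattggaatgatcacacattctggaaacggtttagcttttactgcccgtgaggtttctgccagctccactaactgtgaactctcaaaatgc
Lmo1 (chr7:109191433-109191633): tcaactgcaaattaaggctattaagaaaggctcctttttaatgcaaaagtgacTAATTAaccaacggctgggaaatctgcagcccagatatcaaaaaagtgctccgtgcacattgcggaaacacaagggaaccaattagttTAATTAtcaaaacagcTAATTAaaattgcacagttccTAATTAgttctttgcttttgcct
Atic (chr1:71540550-71540750): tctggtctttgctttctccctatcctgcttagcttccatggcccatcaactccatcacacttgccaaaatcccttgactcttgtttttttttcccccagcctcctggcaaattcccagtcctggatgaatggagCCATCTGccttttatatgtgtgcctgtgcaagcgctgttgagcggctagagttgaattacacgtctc
The next 3 are the deepest members, by the lower of the cKO depths, called in both cKO lists and in neither Ctrl list, and each held CAGATGG or its reverse complement CCATCTG.
Znrf4 (chr17:56509734-56509934): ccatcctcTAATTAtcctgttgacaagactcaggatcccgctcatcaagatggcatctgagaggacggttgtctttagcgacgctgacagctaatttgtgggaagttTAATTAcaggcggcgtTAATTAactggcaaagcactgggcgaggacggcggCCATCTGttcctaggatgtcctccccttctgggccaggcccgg
Lrrc55 (chr2:85213832-85214032): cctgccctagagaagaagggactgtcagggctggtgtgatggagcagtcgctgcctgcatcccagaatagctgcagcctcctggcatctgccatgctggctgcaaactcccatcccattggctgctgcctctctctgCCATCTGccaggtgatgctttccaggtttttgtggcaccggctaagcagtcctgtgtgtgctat
Sstr1 (chr12:58208107-58208307): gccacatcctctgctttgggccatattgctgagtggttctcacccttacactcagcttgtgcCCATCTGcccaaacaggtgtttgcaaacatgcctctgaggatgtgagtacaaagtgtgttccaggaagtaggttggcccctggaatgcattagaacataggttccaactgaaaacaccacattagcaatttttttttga
A pair of windows show the repeated units that made up much of the Ctrl 2 list, the first from the deepest member of that list and the second from a member called in both Ctrl lists alone.
Tmem125 (chr4:118547858-118548058): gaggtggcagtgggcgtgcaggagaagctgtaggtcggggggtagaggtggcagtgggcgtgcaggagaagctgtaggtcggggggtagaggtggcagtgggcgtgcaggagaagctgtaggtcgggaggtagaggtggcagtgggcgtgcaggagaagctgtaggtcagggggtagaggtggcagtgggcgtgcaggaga
Scn8a (chr15:100866955-100867155): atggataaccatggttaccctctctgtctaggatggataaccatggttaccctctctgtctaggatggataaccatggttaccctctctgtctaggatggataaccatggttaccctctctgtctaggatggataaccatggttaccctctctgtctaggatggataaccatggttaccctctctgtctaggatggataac
The last 3 are, for each of 3 genes that the study followed and that had a member in lists of both groups, the deepest member nearest to it. They are the Wnt ligand genes Wnt7b and Wnt10a and the proneural factor gene Neurog2.
Wnt7b (chr15:85610748-85610948): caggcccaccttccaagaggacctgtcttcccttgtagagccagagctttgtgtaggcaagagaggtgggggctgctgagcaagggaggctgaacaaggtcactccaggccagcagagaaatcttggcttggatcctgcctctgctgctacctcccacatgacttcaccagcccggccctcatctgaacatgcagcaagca
Wnt10a (chr1:74808187-74808387): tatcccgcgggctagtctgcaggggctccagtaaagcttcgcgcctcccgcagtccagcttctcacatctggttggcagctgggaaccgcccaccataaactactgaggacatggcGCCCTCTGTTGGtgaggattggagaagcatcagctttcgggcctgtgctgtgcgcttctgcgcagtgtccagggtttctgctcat
Neurog2 (chr3:127640269-127640469): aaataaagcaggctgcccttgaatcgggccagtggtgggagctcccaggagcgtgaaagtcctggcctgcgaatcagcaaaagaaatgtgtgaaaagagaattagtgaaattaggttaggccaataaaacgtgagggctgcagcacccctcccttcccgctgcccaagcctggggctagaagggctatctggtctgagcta

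One library stood apart. Ctrl 2 had 7037 peaks against 46389 in Ctrl 1, 21404 in cKO 1 and 44535 in cKO 2, and 60.6% of its peaks were at least 50% soft-masked, against 5.37% to 14.7% in the other lists. Its mean depth over the genome was the highest, at an estimated 29.6 M fragments against 14.6 M to 19.4 M. Among its 172 members, 97 (56.4%, 95% Wilson interval 48.9% to 63.6%) were tandem repeats, defined as windows in which at least 50% of the 12-base words occur more than once, whereas 1.3% to 4.34% of the members of the other lists were. Group differences that turned without this library are therefore given both ways. Class comparisons, motif shares and gene lists include it, except where stated. Settings without tandem repeats or with masked peaks kept are given where they turn a direction.

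The number of members followed the length of each list. There were 4303 members in Ctrl 1, 172 in Ctrl 2, 1245 in cKO 1 and 3917 in cKO 2. The groups overlapped, since the highest and the lowest value were both Ctrl, and the mean difference of 343.5 peaks (cKO minus Ctrl) gave p = 1 (exact permutation, two-sided, all 6 ways to split the libraries). That test cannot go below 0.333 with 2 libraries a group, so no comparison of the groups could pass 0.05, and the Benjamini-Hochberg adjusted value was 1 for each of the 9 measures compared. Without Ctrl 2 the difference turned to -1722 peaks. As a share of its own list, members made up 9.28%, 2.44%, 5.82% and 8.80% in the same order, again overlapping between the groups (difference 1.45 percentage points, exact p = 1). This difference turned to -1.97 points without Ctrl 2 and to -2.24 points when soft-masked peaks were kept.

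Lists of equal length gave a narrower picture. Among the 7037 strongest peaks of each library by p-value, members made up 3.03% (95% Wilson interval 2.65% to 3.45%) in Ctrl 1 and 2.44% (2.11% to 2.83%) in Ctrl 2. The shares were 3.15% (2.77% to 3.59%) in cKO 1 and 3.68% (3.27% to 4.15%) in cKO 2. Both cKO values lay above both Ctrl values, with means of 3.42% ± 0.372 (SD, n = 2) and 2.74% ± 0.412 (SD, n = 2) and an exact permutation p = 0.333, but the intervals of the groups overlapped in every pair except Ctrl 2 and cKO 2. Intervals and depths here cover counting error alone. The difference of 0.682 percentage points fell to 0.391 without Ctrl 2, and it turned to -3.39 when soft-masked peaks were kept.

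**Figure D1:**
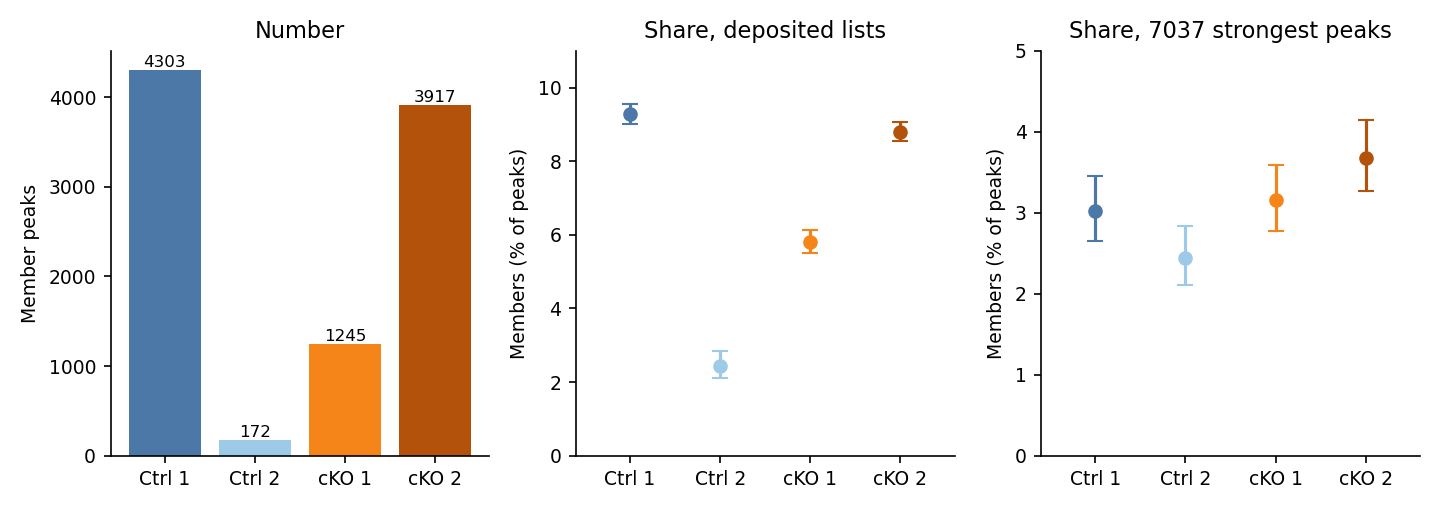
Members in each library, as a number (left, bars from 0), as a percentage of the deposited list (middle) and as a percentage of the 7037 strongest peaks (right), with error bars giving 95% Wilson intervals. Numbers run from 172 to 4303 and follow list length, and at equal length the 4 shares lie between 2.44% and 3.68%.

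Members were weak to moderate peaks. Depth at a summit was recovered as whole fragments from the deposited fold and p-value and divided by the mean depth of that library over the genome, which gives the scaled depth used here. The median member had 15 fragments in Ctrl 1, 20 in Ctrl 2, 16 in cKO 1 and 17 in cKO 2, or a scaled depth of 9.25, 5.77, 7.71 and 9.41. Ranked by depth within its own list, the median member stood at percentile 39.1, 50.2, 39.7 and 40.5 of all peaks. Group means of the scaled depth were 8.56 ± 1.20 in cKO and 7.51 ± 2.46 in Ctrl (SD, n = 2 each, exact permutation p = 0.667), and without Ctrl 2 the difference turned to -0.69. Median widths were 367, 482.5, 337 and 368 bp, and members covered 1841, 117, 498 and 1677 kb in the same order, with group ranges that overlapped for kb covered (exact p = 1) and for width (exact p = 0.667). Without Ctrl 2 the difference in kb turned from 109 to -754.

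The distance to genes gave the same order in 3 of the 4 libraries. The sequence that meets the positional rule comprised 367 Mb, or 15.3% of the autosomes. In Ctrl 1 there were 7.66 members per Mb at 2 to 5 kb from the nearest protein-coding TSS, 10.6 at 5 to 10 kb, 11.4 at 10 to 20 kb and 13.3 at 20 to 50 kb. In cKO 2 the same bins held 7.12, 9.19, 10.7 and 12.1 per Mb, and in cKO 1 they held 2.27, 2.82, 3.36 and 3.89. Member density thus rose away from genes in these 3 libraries, both per Mb of all sequence and per Mb that is not soft-masked. Ctrl 2 had no such order, at 0.439, 0.502, 0.378 and 0.515 per Mb. The counts leave out peaks that overlap an island (230 in Ctrl 1), while the sequence they are divided by includes islands. Whether this lowers the bins nearest to genes was not tested.

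**Figure D2:**
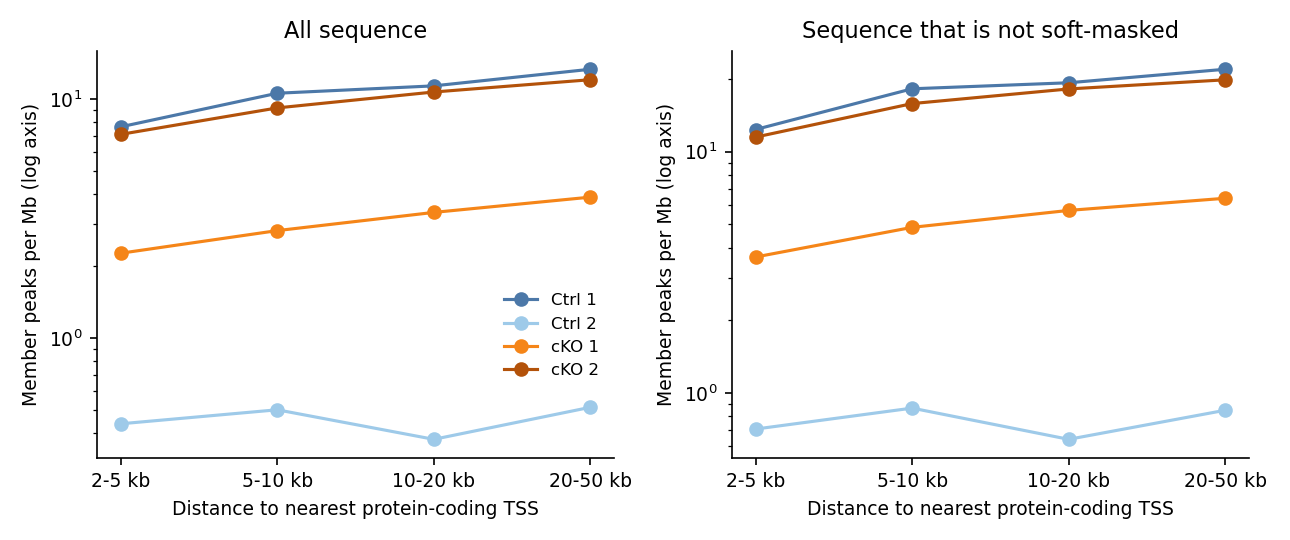
Member peaks per Mb of eligible autosomal sequence (log axis) against the distance of the summit from the nearest protein-coding TSS, per Mb of all sequence (left) and of sequence that is not soft-masked (right), one line per library. Density rises from the nearest to the farthest bin in Ctrl 1, cKO 1 and cKO 2 and has no order in Ctrl 2.

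Within 10 kb of a protein-coding TSS lay 22.5% of the members of Ctrl 1, 28.5% of Ctrl 2, 21.4% of cKO 1 and 21.9% of cKO 2. Both cKO shares were below both Ctrl shares (difference -3.79 percentage points, exact permutation p = 0.333), and the difference was -0.785 points without Ctrl 2. Members upstream of their nearest gene made up 69.3%, 73.8%, 67.0% and 69.0%, beside 71.2% of the eligible sequence itself. The median distance was 20.1 to 21.4 kb in all 4 lists. Between 166 and 3209 genes a library were nearest to a member, and this number too followed list length (difference 329.5, exact p = 1, and -1192 without Ctrl 2).

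Members were next compared with the 2 most similar classes of the same libraries, the 32265 distal peaks inside introns and the 19224 intergenic peaks beyond 50 kb, by exact two-sided sign-flip permutation tests of the 4 within-library differences. The smallest p such a test can give is 0.125, and 10 comparisons were made. Members were richer in G and C: the mean GC of the 201 bp windows was 49.5%, 50.1%, 50.1% and 49.9% in members (Ctrl 1, Ctrl 2, cKO 1, cKO 2), 47.9%, 50.0%, 48.6% and 48.7% in intronic peaks, and 45.8%, 48.1%, 46.8% and 46.4% beyond 50 kb. The differences were 1.14 ± 0.679 points (SD, n = 4, exact p = 0.125) and 3.16 ± 0.779 points (SD, n = 4, exact p = 0.125), each in the same direction in 4 of 4 libraries, with adjusted p = 0.25. Observed over expected CpG in members was 0.284, 0.189, 0.274 and 0.272, which exceeded intronic peaks in 4 of 4 libraries (difference 0.0341, exact p = 0.125) and peaks beyond 50 kb in 3 of 4 (difference 0.0332, exact p = 0.25). For depth the order was less even, since the median scaled depth differed by -0.26 from intronic peaks (lower in 2 of 4 libraries, equal in the others) and by -0.27 from peaks beyond 50 kb (lower in 3 of 4), both with exact p = 0.5. Against peaks beyond 50 kb it differed by -0.616 in Ctrl 1, -0.482 in cKO 1, -0.554 in cKO 2 and 0.577 in Ctrl 2. Without Ctrl 2 the mean of these differences was -0.551. Median width differed by 0.375 bp and 2.38 bp (both exact p = 1). Per Mb of their own territory members numbered 11.7, 0.469, 3.39 and 10.7, intronic peaks 14.6, 0.670, 4.55 and 13.5, and peaks beyond 50 kb 10.4, 0.316, 3.63 and 9.85. There were 0.304, 0.265, 0.283 and 0.299 members per intronic peak, values that overlapped between the groups (difference 0.0063, exact p = 1, and -0.0132 without Ctrl 2).

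Members held CTCF letters more often than both other classes. The CTCF core, spelled CCA, 2 free bases, AG, 2 free bases and GGC, was found on either strand in 8.67% of the members of Ctrl 1, 2.33% of Ctrl 2, 3.78% of cKO 1 and 6.77% of cKO 2. In intronic distal peaks the same shares were 4.50%, 1.23%, 2.43% and 3.54%, and beyond 50 kb they were 3.28%, 0%, 1.87% and 2.71%. The share in members was higher in 4 of 4 libraries in both comparisons, by 2.46 points (SD 1.49, exact p = 0.125) and by 3.42 points (SD 1.61, exact p = 0.125), with adjusted p = 0.25. For Ctrl 2 the share in members rests on 4 peaks.

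For the counts over sites, member peaks that overlap by at least 1 bp were merged into 5499 regions, beside 58652 merged in the same way from all peaks, those of the sex chromosomes included. The CTCF core was in 452 of the 5499 member regions, or 8.22% (95% Wilson interval 7.52% to 8.98%), beside 3.84% of all regions of the same length, 4.21% of intronic distal regions, 3.19% of intergenic regions beyond 50 kb and 3.07% of regions at promoters. It was more frequent in member regions found in 1 list (10.2%) or 2 lists (8.50%) than in 3 (3.39%), and it was in 4 of the 62 regions found in all 4 lists (6.45%). By list, 12.2% of the 1399 member regions of Ctrl 1 alone held it and 8.23% of the 972 of cKO 2 alone, against 3.47% of the 1065 shared by these lists and cKO 1. In Ctrl 1 the share was 8.59% in the shallowest 20% of members by scaled depth and 5.81% in the deepest, and in cKO 2 it was 8.16% and 3.96%, whereas in cKO 1 it was 4.02% and 5.62%. The change was not steady, since the middle 20% held 10.6% in Ctrl 1, 9.18% in cKO 2 and 2.41% in cKO 1.

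The NEUROG/NEUROD E-box CAGATGG was least frequent among the shallower members of these 3 libraries. It was in 773 member regions, or 14.1% (13.2% to 15.0%), beside 10.7% of all regions, 4.25% at promoters, 14.8% in introns and 15.8% beyond 50 kb. In cKO 2 its share was 11.5% in the shallowest 20% of members and 18% in the deepest, in cKO 1 it was 11.6% and 16.1%, and in Ctrl 1 it was 12.3% and 15.3%. This change was not steady either, with its lowest value (11.4%) in the next 20% of Ctrl 1 and its highest (16.9%) in the next 20% of cKO 1. Among regions in 1, 2 and 3 lists the shares were 11.8%, 15.9% and 16.5%, and it was in 3 of the 62 regions of all 4 lists (4.84%). In 28 of the 773 regions every match overlapped a CTCF core match, as in the window near Tbpl1 printed above. By library the E-box was in 14.0%, 2.33%, 15.3% and 15.6% of members, and the low value is that of Ctrl 2.

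The homeobox letters TAATTA were in 10.3% of member regions against 8.94% of all regions, and the AP-1 letters TGANTCA were in 7.06% against 5.61% (6.92% in introns and 8.34% beyond 50 kb). The homeobox letters were in 12.8% of intronic and 15.7% of far intergenic regions, so members held fewer of them than both. The TCF/LEF letters CTTTGAT, the site through which Wnt signals act on genes, were in 3.15% against 2.59% (3.10% in introns and 3.69% beyond 50 kb), the SOX letters ACAATGG in 3.02% against 3.06%, the octamer ATGCAAAT of POU factors in 1.95% against 1.70%, and the RFX letters GTTGCCAT in 1.42% against 1.32%. The CRE letters TGACGTCA were in 0.491% of members, below the 0.887% of all regions and the 2.35% of promoters and above the 0.294% of intronic and 0.225% of far intergenic regions. The full NFI site, TTGGC and GCCAA 5 bases apart, and the MEF2 decamer were each in 6 member regions. A match describes letters in the window, not a bound site.

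**Figure D3:**
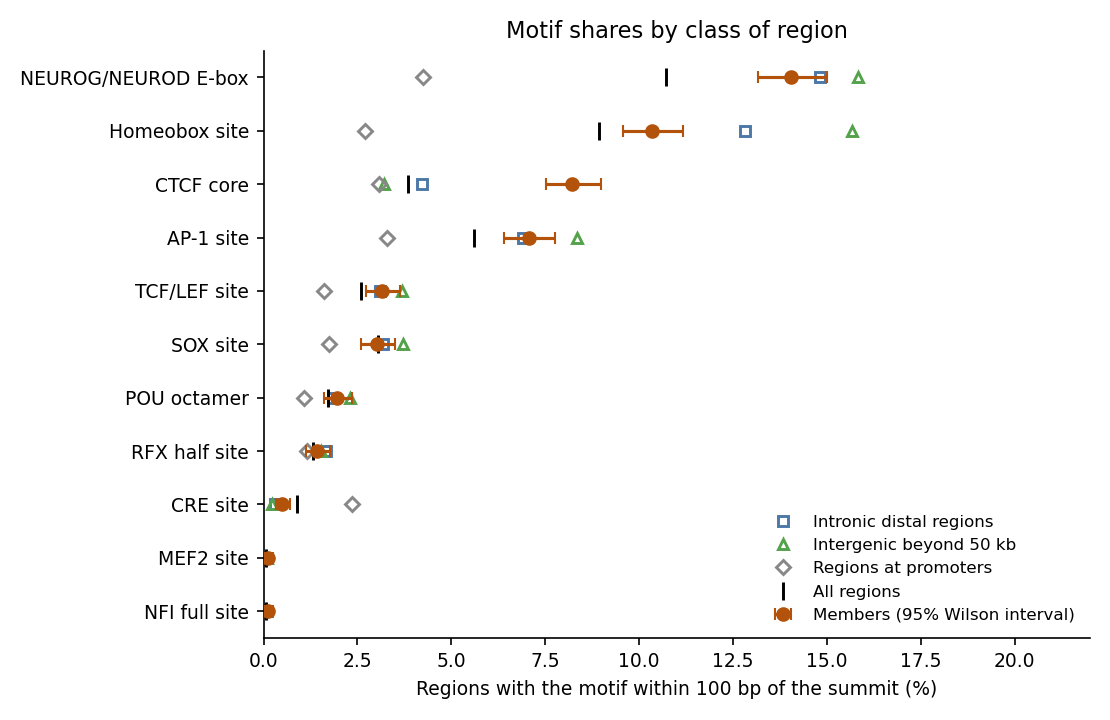
Percentage of regions that hold each of 11 motifs on either strand within 100 bp of the deepest summit, for member regions (filled circles, bars give 95% Wilson intervals), intronic distal regions, intergenic regions beyond 50 kb, regions at promoters and all regions. The CTCF core stands at 8.22% of members and at 3.07% to 4.21% of the other classes, and the homeobox site at 10.3% of members lies below intronic and far intergenic regions.

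Regions in 3 lists were deeper than regions in 1 or 2. Of the 5499 member regions, 2475 (45.0%) were in 1 list, 1871 in 2, 1091 in 3 and 62 (1.13%) in all 4. The largest pattern was Ctrl 1 with cKO 2 (1772 regions), then Ctrl 1 alone (1399), these lists with cKO 1 (1065) and cKO 2 alone (972). Of the regions of cKO 1, 91.5% were shared with Ctrl 1 and 93.4% with cKO 2, whereas 26.7% of the regions of Ctrl 1 and 29.9% of those of cKO 2 were shared with cKO 1. The median scaled depth in Ctrl 1 was 6.78 in regions of that list alone, 9.86 in those shared with cKO 2 and 16.6 in those shared with both cKO lists. In cKO 2 the corresponding medians were 7.20, 9.41 and 16.6, so of these patterns the regions held by Ctrl 1 alone or cKO 2 alone were the shallowest. The 62 regions of all 4 lists did not extend this order, with medians of 14.8 in Ctrl 1 (lower quartile 6.94, against 12.3 in 3 lists) and 16.3 in cKO 2.

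A peak in both cKO lists and in neither Ctrl list was found at 42 member regions (0.764%), beside 0.692% of all merged regions. A peak in both Ctrl lists and in neither cKO list was found at 5 (0.0909%), beside 0.305% of all merged regions. A region of both Ctrl lists had to be among the 180 held by Ctrl 2, and one of both cKO lists among the 1266 held by cKO 1. With these unequal limits the net count was 37 toward cKO. It was -1349 without Ctrl 2, 1040 without Ctrl 1, 1004 without cKO 1 and 71 without cKO 2, but these counts ask for a peak in 1 list of the reduced group and in both lists of the other, so they are not of the same form as 37. The 42 regions were near 41 genes, with a median scaled depth of 6.27 in cKO 1 (4.34 to 14.9), below the 7.71 of all members of that library, and of 9.96 in cKO 2 (4.43 to 43.2), beside 9.41.

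Ranked by the lower of the cKO depths, the deepest of the 42 lay 2.60 kb downstream of the TSS of Znrf4, which encodes a RING finger protein (chr17:56509482-56509958). It had 31 fragments in cKO 1 and 78 in cKO 2, or scaled depths of 14.9 and 43.2, and no peak in either Ctrl list. The second lay 16.7 kb upstream of Lrrc55, an auxiliary subunit gene of BK potassium channels (chr2:85213653-85214211), with 28 and 57 fragments. A further region lay 3.57 kb upstream of the somatostatin receptor gene Sstr1 (chr12:58207953-58208399), with 25 and 37. Members near Paqr8 (22 and 19 fragments), which encodes a membrane progestin receptor, and near Bmp10 (22 and 17), a growth factor gene of the heart, followed in this ranking, although both lay near the median of the 42 in cKO 2 (10.5 and 9.41, beside 9.96). The Bmp10 window was a tandem repeat with 9 further copies in the genome, and the other 4 had none.

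Matches to CAGATGG were in 13 of the 42 regions, or 31.0% (19.1% to 46.0%), beside 14.1% of all member regions. In the 364 regions of other classes that were also called in both cKO lists alone, the share was 13.7% (10.6% to 17.7%). The SOX letters were in 4 of the 42 (9.52%, interval 3.77% to 22.1%, beside 3.02% of members) and the CTCF core in 2. With 11 motifs looked at over 42 regions these shares are a description.

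The 5 regions of both Ctrl lists alone had further copies of their sequence wherever the window was examined. The deepest lay 23.1 kb downstream of the TSS of Fam107a, a gene for an actin-binding protein (chr14:8286642-8286861), with 38 fragments in Ctrl 1 and 74 in Ctrl 2, and its window had 4 further copies in the genome at 90% identity or more. The window near Slc16a14, a gene of the monocarboxylate transporter family, had 15 further copies, that near the transcription factor gene Sox21 had 12 and that near the sodium channel gene Scn8a had 14. The windows near Sox21 and Scn8a were tandem repeats, so these copies may include units of the same array. The fifth lay near Lmx1b, where the Ctrl 1 peak was itself not a member.

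In the 62 regions called in all 4 lists, both cKO scaled depths lay above both Ctrl depths at 3 (4.84%, beside 9.04% of the 3263 such regions of all classes) and below both at 6 (9.68%, beside 3.77%). Of the 62, 27 (43.5%) were tandem repeats, and the net of -3 turned to 1 without tandem repeats and to 23 when soft-masked peaks were kept. When Ctrl 2 was set aside, 1127 regions were called in Ctrl 1 and both cKO lists. Both cKO depths were above Ctrl 1 at 43 of them (3.82%, beside 5.86% of all such regions) and below at 559 (49.6%, beside 61.0%). The 2 cKO libraries differed in this: the median log2 ratio to Ctrl 1 was -1.01 for cKO 1, with 1082 of 1127 regions lower, and 0.00 for cKO 2, with 566 higher and 561 lower. Over all such regions of the series the medians were -1.17 and -0.12, near those of members.

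Of the 6 deepest regions of all 4 lists, 2 were tandem repeats. Near Tmem125 (chr4:118547205-118548710) the scaled depth was 374 in Ctrl 1, 669 in Ctrl 2, 350 in cKO 1 and 587 in cKO 2, and its window was a tandem repeat with 27 further copies. Near Hic2, a transcriptional repressor gene (chr16:17222259-17222508), the values were 694, 130, 459 and 478, and 108 bp of its window matched another place in the genome at 99.1% identity. Near Cd209a, a lectin gene of dendritic cells, they were 301, 49.4, 161 and 175, and no stretch of at least 100 bp of its window matched elsewhere. No full ribosomal RNA sequence was used here, so likeness of these windows to it was not tested. Near Batf3, a leucine zipper factor gene, they were 80.8, 15.0, 45.3 and 36.5, and stretches of at least 100 bp of its window matched 16 other places. Near Snrpe, a spliceosome protein gene, they were 21.6, 40.1, 28.0 and 24.9 at another tandem repeat. The region near Tbpl1, which encodes a relative of the TATA-binding protein (chr10:22746087-22747203), was the one of these 6 with a CTCF core, and its window had no further copy: its scaled depth was 45.6, 7.22, 20.7 and 60.3. No member region aligned to the mitochondrial genome.

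None of the 6 deepest members absent from the Ctrl 2 list alone was a tandem repeat, and Klrb1c had the one window with a further copy (1, at 90% identity). Near Gm8797 (chr3:5754655-5755442) the scaled depth was 78.3 in Ctrl 1, 28.9 in cKO 1 and 75.3 in cKO 2. Near Lmo1, a LIM-only transcription cofactor gene of the developing brain (chr7:109191134-109192105), it was 68.4, 28.9 and 71.4, and the printed window held TAATTA at 4 places. Near Klrb1c, a natural killer receptor gene, it was 69.0, 28.4 and 60.9. Near Atic, a purine synthesis gene (chr1:71540131-71541062), it was 46.2, 22.7 and 42.6, near Oxsm, a mitochondrial fatty acid synthesis gene, it was 52.4, 22.7 and 41.5, and near the keratin-associated gene Krtap13 it was 43.8, 22.7 and 45.4. In all 6, cKO 1 was the lowest, and Ctrl 1 and cKO 2 differed less from each other than from cKO 1.

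**Figure D4:**
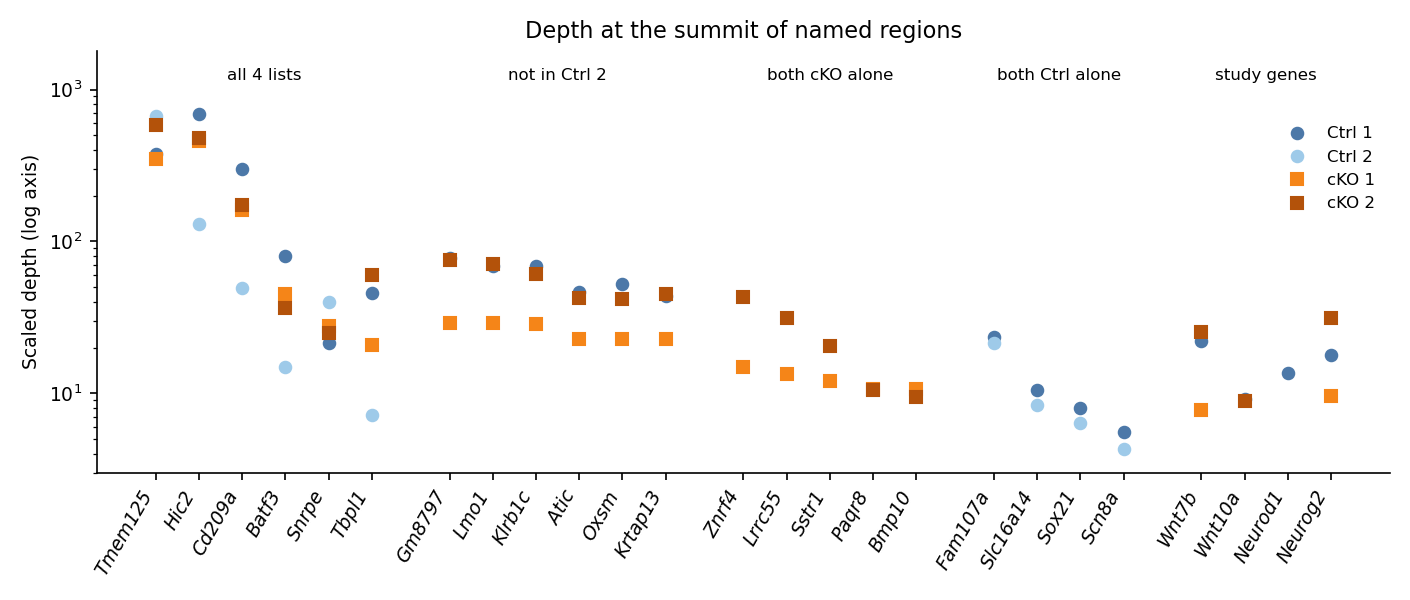
Scaled depth at the summit (log axis, fragments over the library's genome mean) of the regions named by rule, 1 point per library in which a peak was called, grouped by the lists that held them. Deep regions of all 4 lists spread widely, those absent from Ctrl 2 show Ctrl 1 and cKO 2 together above cKO 1, and those of both cKO lists alone lie at 9.41 to 43.2.

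Of the 20807 autosomal protein-coding genes, 3802 (18.3%) were the nearest gene of at least 1 member region, 1124 of them with 2 to 4 regions and 38 with 5 or more. Being nearest says nothing about which gene a site acts on. Foxo6, a forkhead factor gene, had the most, with 8 regions, of which 6 were in Ctrl 1, 0 in Ctrl 2, 4 in cKO 1 and 7 in cKO 2. The deepest of them (chr4:120252508-120253010, 34.7 kb downstream of the TSS) had scaled depths of 38.8, 18.3 and 41.0 in Ctrl 1, cKO 1 and cKO 2. Nfkbia, which encodes the NF-kappa-B inhibitor alpha, had 7, the deepest with 35.8, 11.6 and 25.5. Camk1g, a calmodulin-dependent kinase gene, and Crisp4, Dapl1, Smim23 and A730009L09Rik had 6 each, and 1700011L22Rik and A530016L24Rik had 5 each.

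Transcription factor genes of the path from progenitor to neuron had the highest share of the 11 gene lists examined. Of 18 genes, 15 (83.3%) had a member region, with 13 in Ctrl 1, 0 in Ctrl 2, 10 in cKO 1 and 12 in cKO 2. By library these are 72.2%, 0%, 55.6% and 66.7%, beside 15.4%, 0.798%, 5.29% and 14.1% of all genes. These genes also have more eligible sequence (46.4 kb a gene against 17.6 kb over all genes), and per 100 kb of it they had 3.47 regions against 1.5 over all genes. Neurod4, a proneural factor gene, had 3, and its region 16.8 kb downstream of the TSS (chr10:130263206-130263677) reached scaled depths of 41.3, 23.1 and 50.4 in Ctrl 1, cKO 1 and cKO 2. Neurog2 had 3, described with the study's genes. Btg2, an antiproliferative gene of progenitors that divide to give neurons, had 3, the deepest with 18.5 in Ctrl 1 and 15.5 in cKO 2. Eomes, Insm1 and Sox2 had none, with 36.4, 16.5 and 15.0 kb of eligible sequence.

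Among Wnt ligand genes, 10 of 19 (52.6%) had a member region, or 2.82 per 100 kb. The 10 were seen in Ctrl 1, 7 of them in cKO 2, 1 in cKO 1 and 0 in Ctrl 2. In this order the shares were 52.6%, 36.8%, 5.26% and 0%, beside 15.4%, 14.1%, 5.29% and 0.798% of all genes. The share in cKO 1 was thus near that of all genes in the same library. Wnt11 had 3 regions, the deepest with 11.7 in Ctrl 1 and 14.9 in cKO 2. Wnt5a and Wnt2b had 2 each, with 10.5 and 7.20 at the deepest for Wnt5a and a single peak of 6.16 in Ctrl 1 at the deepest for Wnt2b. Among receptors, transducers, antagonists and feedback genes of the pathway, 18 of 36 (50.0%) had one, or 1.94 per 100 kb. Fzd9, a Frizzled receptor gene, had 4, Dkk3, of the Dickkopf family, and Nkd1, a feedback inhibitor gene, had 3 each, and Axin2, a feedback target, had 2. The deepest values were 14.2 and 15.5 for Fzd9, 23.4 and 10.5 for Dkk3, 12.9 and 6.64 for Nkd1, in Ctrl 1 and cKO 2, and 15.4, 6.75 and 18.8 in Ctrl 1, cKO 1 and cKO 2 for Axin2. Each of these regions has at most 1 Ctrl value, so the groups were not tested on them.

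Of 10 genes that the study followed, which is a list chosen by the study on these mice, 4 had a member region. Near Wnt7b there were 2. The first (chr15:85610677-85611203, 28.4 kb upstream) had scaled depths of 22.2 in Ctrl 1, 7.71 in cKO 1 and 25.5 in cKO 2, and the second (chr15:85613125-85613829) had 14.8, 8.68 and 17.2. Near Neurog2 there were 3, the deepest 7.23 kb downstream (chr3:127639676-127640773) with 17.9, 9.64 and 31.6. A second had 12.3, 6.75 and 10.5, and another had 24.7 in Ctrl 1 and 12.7 in cKO 2. Near Wnt10a, whose window held a CTCF core, the depth was 9.25 in Ctrl 1 and 8.86 in cKO 2. Near Neurod1 a peak was called in Ctrl 1 alone, with 13.6 (22 fragments). Where all 3 had a peak, Ctrl 1 lay between the cKO libraries or above both. Eomes, Lef1, Pax6, Sfrp2, Wnt3 and Wnt6 had no member. Eligible sequence was short at Pax6 (3.66 kb), Wnt6 (5.33 kb) and Wnt3 (14.0 kb), so absence there says little about these genes. At Eomes, Lef1 and Sfrp2 it was 36.4, 48 and 60.1 kb.

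The tissue label was set beside lists of several cell types, and the order of the lists did not single out the labelled tissue. Per 100 kb its factor genes lay below the glial lineage and choroid plexus lists and above the interneuron, microglia and other-tissue lists. Transcription factor genes of the dorsal telencephalon and hippocampus had a member at 7 of 20 (35.0%, 1.86 per 100 kb), with 3 regions at Dmrta2, 2 at Emx2 and 1 each at Emx1 and Lhx2. Projection neuron factor genes had one at 6 of 17 (35.3%, 1.54 per 100 kb), among them Cux1, Id2 and Mef2c with 2 each and Fezf1. Astrocyte and oligodendrocyte lineage genes had one at 5 of 12 (41.7%, 2.61 per 100 kb), led by the glutamate transporter gene Slc1a3 with 3 regions, whose deepest had 19.1, 10.1 and 24.9, then Olig2 with 2 and Fabp7 and Id4 with 1 each. Choroid plexus, ciliated and cortical hem genes had one at 8 of 14 (57.1%, 3.22 per 100 kb), led by Msx1 with 4 and Kl with 3, with Foxj1 and Lmx1a at 1 each. Interneuron genes had one at 4 of 14 (28.6%, 1.48 per 100 kb), namely Dlx5, Slc32a1, Sp8 and Sst. Microglia and vessel genes had one at 4 of 16 (25%, 1.24 per 100 kb), namely Cdh5, Cx3cr1, Erg and Sox17. Genes of other tissues had one at 2 of 17 (11.8%, 0.544 per 100 kb), Apob and Tbx5. The lists are small and chosen with earlier results known, so these shares are set beside the 18.3% and 1.5 per 100 kb of all genes as a description.

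**Figure D5:**
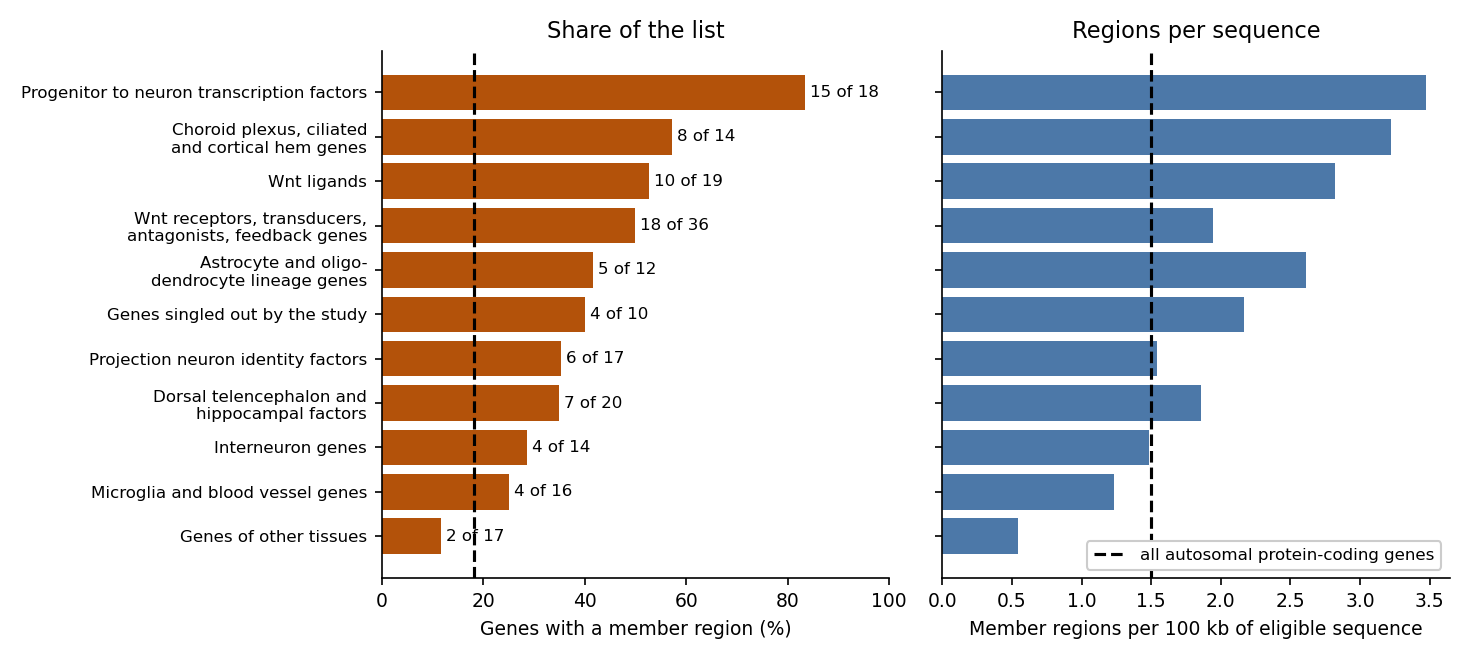
Genes of each of 11 lists that are nearest to at least 1 member region, as a percentage of the list (left, bars from 0, with counts) and as member regions per 100 kb of eligible sequence (right), with dashed lines at 18.3% and 1.5 for all autosomal protein-coding genes. Progenitor to neuron transcription factors are highest in both panels, at 83.3% and 3.47, and genes of other tissues lowest, at 11.8% and 0.544.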

How the data were processed

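Nuclei of P0 hippocampus (50000 per reaction, 2 cKO and 2 Ctrl libraries) were profiled by ATAC-seq. The authors used cutadapt for trimming and Bowtie2 for alignment to mm10, discarded blacklisted, mitochondrial and duplicate reads (SAMtools, Picard), shifted them for the Tn5 insertion and called peaks for each library with MACS2 2.2.7.1. Each deposited list gives, per peak, a score, the fold enrichment at the summit (a ratio), the −log10 p-value, the −log10 q-value and, as a further value, the offset of the summit from the peak start. Reads and coverage tracks were not used here. Samples were grouped by their labels, with no library left out of the main values.

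Whole fragments at each summit were recovered from fold and −log10 p-value under the Poisson model of MACS2 (at least 99.986% of peaks fitted within 0.01), and divided by the mean genome depth of the library (1.62, 3.46, 2.07 and 1.81 fragments in Ctrl 1, Ctrl 2, cKO 1 and cKO 2) to give the scaled depth. Gene bodies, TSSs and CpG islands (16137) came from GENCODE M21 and the GRCm38 sequence, where islands were segments of maximal score that gained 17 at each unmasked CpG and lost 1 at each other base, before the limits on length, GC and CpG. Python 3.11.15, pysam 0.24.0, samtools 1.23.1 and blastn 2.17.0 were used. Depth recovery, the island scan, motif search, tandem share, exact tests and peak merging were checked on constructed inputs with known answers. The other statistics were not checked in this way. Copies were sought at 90% identity or more over at least 80% of a window. Their places are not given here, and units of the same array beside a window may be among them. Members and gene lists were chosen with earlier results of these data known.

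Named regions were the 6 deepest in all 4 lists and the 6 deepest in the lists other than Ctrl 2 (by the smallest within-list percentile), the 5 deepest in both lists of one group alone, the deepest near each gene of the study list, the 10 genes with most regions and up to 4 genes of each list. The fifth region of both Ctrl lists alone has no depth as a member in Ctrl 1 and is named without values, and some items that the rule picks are not reported here. Alternatives were leaving out each library, −log10 q of at least 5, keeping island or masked peaks, a limit of 5 kb from a TSS or of 25 kb from a gene, equal-size lists, another overlap, 401 bp or whole-peak windows and the replicate number as a block. Added after seeing the data were the crossed pairing and leaving out tandem repeats.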

Additional observations from a re-analysis of the deposited data

How the results depend on the processing

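No group comparison could pass 0.05 with 2 libraries a group, so stability here means direction only. Outside the leave-one-out settings and the pairings below, which cannot change a difference, 55 of 61 settings of the 9 measures kept their direction. With soft-masked peaks kept, the share of deposited lists turned to -2.24 points, that of equal-size lists to -3.39 points and the members per intronic peak to -0.0802. The last also turned to -0.00702 at most 25 kb from a gene, -0.00441 at −log10 q of at least 5 and -0.0251 in equal-size lists. The net of all-list regions with cKO depths above against below (-3) turned to 23 with soft-masked peaks kept and to 1 without tandem repeats, and it was -1 at −log10 q of at least 5 and 0 in equal-size lists.

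Leaving out each library in turn gave ranges of -1722 to 2409 member peaks, -1.97 to 4.86 points of the deposited lists, 0.391 to 0.973 points of the equal-size lists, -754 to 971 kb, -0.685 to 2.79 of scaled depth, -0.0132 to 0.0258 members per intronic peak and -1192 to 1851 genes, while median width (-130 to -14.5 bp) and the share within 10 kb (-6.80 to -0.785 points) kept their direction. The net of regions held by one group alone ranged from -1349 to 1040, and that of depths from -516 to 10, both with the reduced group asked for in 1 list. Median width against intronic peaks (0.375 bp) ranged from -7.67 to 3.83 bp, and against peaks beyond 50 kb (2.38 bp) from -22.7 to 14.5 bp. GC and CTCF differences between classes kept their direction under each library left out and with whole peaks. With 401 bp windows the CTCF core was in 10.7% of member regions (5.67% of all) and the NEUROG/NEUROD E-box in 20.9% (15.9% of all), while AP-1 (13.0%), TCF/LEF (5.98%), SOX (5.76%), homeobox (16.04%) and RFX letters (2.44%) moved by over 1.5 times, and the POU octamer, at 3.13% against 3.14% of all, no longer exceeded all regions.

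The labels number replicates in both groups, but same-numbered libraries did not deviate together (correlation -0.67 over 62 member regions and -0.82 over 3263 regions of all classes). With the replicate number as a block the differences were as before (343.5 member peaks and 0.682 points of equal-size lists, for example), with sign-flip p of 0.5 or 1, the smallest possible being 0.5. The crossed pairing gave the same differences and p of 0.5 or 1. The median member had 15 to 20 fragments at its summit, which limits the precision of each depth.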
